A study of Mus musculus with 33 samples.

Results

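The 9 genes described here make, break down or carry glutamine, glutamate and ammonium in the liver: Glul, Slc1a2, Slc1a4, Rhbg, Oat, Gls2, Slc1a5, Slc38a3 and Glud1. They were taken by symbol from a table of 21671 genes, in which all 9 are present, and none was chosen by a threshold on its values. The series sequenced total RNA from 33 C57BL/6 mouse livers and liver nodules in order to compare MYC and β-catenin, alone and together. In the short-term arm, mice 6 to 8 weeks old received AAV8-TBG-CRE intravenously, a virus in which a promoter active in hepatocytes drives Cre recombinase, and their livers were collected at day 4. These mice were wild type (5 livers), carried the β-catenin allele Ex3 (5 livers), carried the transgene R26-lslMYC (5 livers) or carried both (5 livers), and all 20 received the virus. In the tumour arm, nodules came from Alb-CreERT2 mice with R26-lslMYC (3 MYC tumours) or with R26-lslMYC and Ex3 (3 MYC+Ex3 tumours), for which the labels give neither age nor time. Their reference was 7 livers labelled wild type and taken 4 days after intraperitoneal 4-hydroxytamoxifen (4-OHT), the drug that activates CreERT2. Ex3 is an allele whose exon 3 Cre removes, which stabilises β-catenin, and R26-lslMYC is silent until Cre removes a stop cassette. Both drivers of Cre are active in hepatocytes, so recombination is directed to these cells, and bulk tissue also holds other liver cells. The labels do not say whether libraries of a group came from separate animals or litters, so p-values measure the spread between these samples.

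Liver handles nitrogen in zones. Periportal hepatocytes, near the incoming blood, take up glutamine through Slc38a3 and open it with the liver glutaminase Gls2, which feeds ammonium to the urea cycle. The last hepatocytes around the central vein catch what ammonium is left and bind it to glutamate with glutamine synthetase, Glul. These pericentral cells also hold Slc1a2, a glutamate importer, Rhbg, an ammonium channel, and Oat, which turns ornithine toward glutamate. Wnt and β-catenin signalling maintains that pericentral programme, and Glul is a common tissue marker of β-catenin activity in liver. Glud1 interconverts glutamate with ammonium and oxoglutarate in mitochondria. Slc1a4 and Slc1a5 are exchangers of neutral amino acids, of which Slc1a5 carries glutamine and is prominent in dividing cells.

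Among the 9 genes, Glul and Oat ran closest to Slc1a2 across the short-term livers. The sequence before the start site is shown for these 3 genes, Slc1a2, Glul and Oat. RefSeq windows of 250 bases upstream of the start were available for these and for Slc1a4 and Glud1, 5 of the 9 genes, in build GRCm38.p6. Each is printed in the direction of the gene, and capitals mark a match to the TCF/LEF motif, the site read by the partners of β-catenin.
Slc1a2, chr2:102706188-102706437, plus strand: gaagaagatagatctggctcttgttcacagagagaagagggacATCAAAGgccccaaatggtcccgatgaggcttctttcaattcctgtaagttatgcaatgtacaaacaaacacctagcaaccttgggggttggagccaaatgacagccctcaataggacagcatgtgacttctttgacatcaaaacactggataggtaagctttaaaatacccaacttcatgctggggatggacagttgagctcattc
Glul, chr1:153899679-153899928, plus strand: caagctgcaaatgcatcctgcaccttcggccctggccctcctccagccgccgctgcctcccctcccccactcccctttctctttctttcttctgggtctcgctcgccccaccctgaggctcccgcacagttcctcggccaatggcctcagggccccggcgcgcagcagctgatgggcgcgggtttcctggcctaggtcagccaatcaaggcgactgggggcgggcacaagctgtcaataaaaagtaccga
Oat, chr7:132576399-132576648, minus strand: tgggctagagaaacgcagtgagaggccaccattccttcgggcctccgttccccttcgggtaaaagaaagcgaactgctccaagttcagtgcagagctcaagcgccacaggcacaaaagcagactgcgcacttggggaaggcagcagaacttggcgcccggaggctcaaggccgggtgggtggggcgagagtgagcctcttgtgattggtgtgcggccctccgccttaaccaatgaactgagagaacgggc
The motif was searched on both strands as CTTTGAT and CTTTGAA, which do not overlap each other. Slc1a2 held 1 match, CTTTGAT on the reverse strand, from 207 to 201 bases before the start. The windows of Glul, Oat, Slc1a4 and Glud1 held no match to these letters, and none of the 5 held the E-box CACGTG, the motif of MYC and its partner. Of 32851 windows of the same length, 3.21% held CTTTGAT, 4.46% held CTTTGAA, 7.48% held either and 6.02% held CACGTG. A match describes letters in a window and is no evidence of binding. Rhbg, Gls2, Slc1a5 and Slc38a3 were not among the windows used here.

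Levels are given as RPKM, read counts divided by the length of the gene and a total for the library. Levels of different genes can thus be set beside each other within a library, except at the compressed top of the scale described below. Short-term libraries had 3.75 to 7.31 M reads in genes and tumour-arm libraries 6.65 to 9.82 M. The totals behind RPKM were set to 1 for wild-type liver 1, which had 5.38 M reads in genes. They followed reads in genes in short-term libraries but not in the tumour arm. There, 4-OHT liver 7 had 7.12 with 8.59 M reads, and MYC+Ex3 tumour 3 had 5.74 with 9.14 M. The part of these totals in tumour differences was not tested beyond rescaling by the median ratio. RPKM of the 2 arms are on different scales, with the highest gene of a library at 220 to 396 in the short-term arm and at 42.9 to 67.5 in the tumour arm, so levels are compared only within an arm. The top of each scale was compressed. Within groups, the reads of the 50 genes of highest RPKM rose by a median of 0.29 log2 units per log2 unit of depth in short-term libraries, against 1.25 for the other genes. The same slope was 0.26 for Oat, 0.59 for Glud1, 0.62 for Slc38a3, 0.66 for Slc1a2 and 0.69 for Glul in short-term livers, and 1.2 to 1.84 for Gls2, Slc1a5, Rhbg and Slc1a4. In the tumour arm the medians were 0.17 and 1.28, with 0.0049 for Slc38a3, 0.09 for Glud1, 0.74 for Gls2, 1.28 for Glul and 1.56 for Oat. Low slopes thus concern Oat, Glud1, Slc38a3, Slc1a2 and Glul in short-term livers, but only Slc38a3, Glud1 and to a lesser degree Gls2 among the 9 in the tumour arm. The higher slope does not clear Glul of the compressed top there, where it reached 95.7% of a library's highest RPKM. Its reads were 3176 to 3573 in 4-OHT livers and 4221 to 4528 in MYC+Ex3 tumours, but 909 to 2876 in MYC tumours. Oat reads also spread most in MYC tumours (509 to 1777, against 1864 to 2265 in 4-OHT livers).

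Of the short-term libraries, 10 carried epidermal keratins (Krt5, Krt14 and Krt17 summing to 3.95 to 23.8 RPKM) and 10 did not (at most 0.398). Keratin-bearing libraries had 3.75 to 5.1 M reads in genes and keratin-free ones 4.39 to 7.31 M. Wild-type, Ex3 and MYC+Ex3 livers held 3 keratin-bearing libraries each and MYC livers held 1, and the labels do not explain them. By Xist and Ddx3y, 2 wild-type, 3 Ex3, 3 MYC and 4 MYC+Ex3 livers were male, as were 4 4-OHT livers, every MYC tumour and 2 MYC+Ex3 tumours. MYC liver 5 was counted as female, with Xist at 86.1 RPKM, but also held Ddx3y at 4.74 RPKM. Other female libraries had Ddx3y of at most 0.134 RPKM, so the sex of MYC liver 5 is uncertain. Hepatocyte markers (Alb, Apoa1, Ttr, Serpina1a and Hnf4a) were present in every group and summed to 681 to 1150 RPKM in short-term livers and 129 to 209 RPKM in the tumour arm. Of these 5, Hnf4a was lower in MYC+Ex3 than in wild-type livers (log2 -0.29), and Ttr (-0.39), Serpina1a (-0.38) and Alb (-0.35) were lower in MYC+Ex3 tumours than in 4-OHT livers, each with a limma adjusted p under 0.05. Alb (48.2 ± 5.78 RPKM in 4-OHT livers) and Ttr (33.9 ± 4.9) lay high on the compressed tumour-arm scale, which limits reading the size of their falls. In bulk tissue, fewer cells of a type and less RNA per cell cannot be told apart.

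In wild-type short-term livers the most abundant of the 9 genes was Slc38a3, at 214 ± 16 RPKM (SD, n = 5). Glul (193 ± 12.9), Glud1 (190 ± 14) and Oat (174 ± 25.5) followed, and the libraries of neighbours in this order overlapped. Gls2 had 129 ± 14.2 RPKM, Slc1a2 58.6 ± 17.4, Rhbg 12.7 ± 4.54, Slc1a4 7.04 ± 2.01 and Slc1a5 2.13 ± 0.868. The order of means was identical in the 4-OHT livers, from Slc38a3 at 37.4 ± 3.6 RPKM (n = 7) and Glul at 37.1 ± 4.87 down to Slc1a5 at 2.64 ± 0.53. Thus the genes of glutamine uptake, synthesis and breakdown were all abundant in normal liver, while the exchangers Slc1a4 and Slc1a5 lay at the low end. The compressed top of the scale limits the order among Slc38a3, Glul, Glud1 and Oat.

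**Figure D1:**
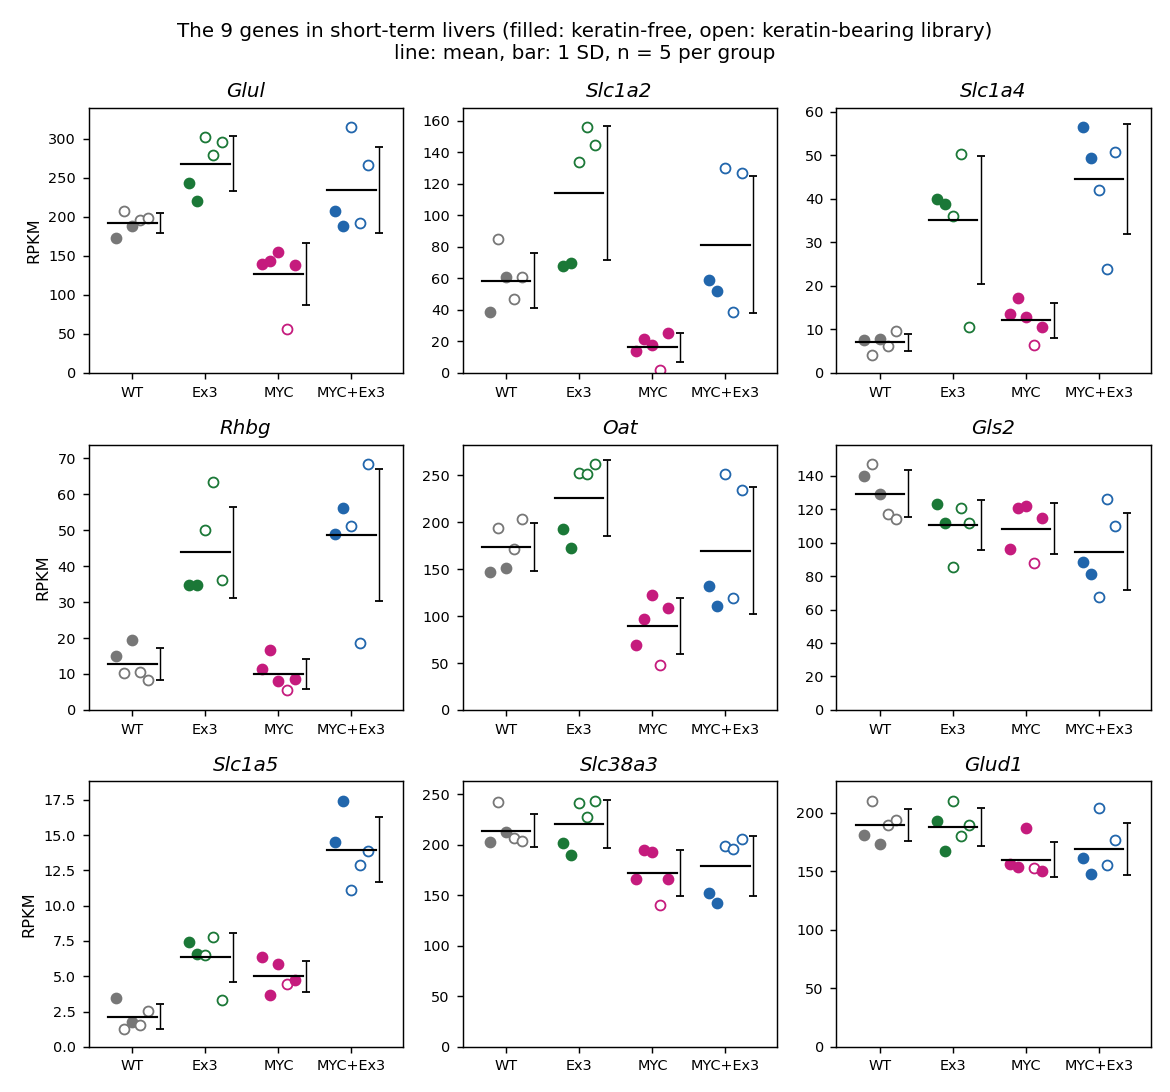
RPKM of each gene in the 20 short-term livers, with 1 point per library, the group mean as a line and 1 SD as a bar. Slc1a2, Glul and Oat were lowest in MYC livers, Slc1a4 and Rhbg were high in both groups with Ex3, and Slc1a5 was highest in MYC+Ex3 livers.

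Glutamine synthetase, Glul, fell with MYC alone. Its RPKM in the 5 wild-type livers was 173, 207, 189, 196 and 199, and in the 5 MYC livers 140, 143, 155, 55.9 and 139. Every MYC liver lay below every wild-type liver, and MYC liver 4 stood far below the rest. The log2 difference of MYC from wild type was -0.68 ± 0.211 (SE, limma adjusted p = 0.0242). MYC liver 4 is also the 1 keratin-bearing library of its group, and without it the difference was -0.41 (limma adjusted p = 0.0382). The call was lost without wild-type liver 2 (limma adjusted p = 0.0511), in keratin-free livers alone (log2 -0.32, limma adjusted p = 0.0622) and with only the 2 groups fitted (limma adjusted p = 0.0672).

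Ex3 livers had Glul at 244, 220, 303, 279 and 296 RPKM. All 5 were above all wild-type livers, but the log2 difference of 0.47 ± 0.211 did not pass (limma adjusted p = 0.905). MYC+Ex3 livers had 208, 189, 315, 192 and 267 RPKM, which overlapped the wild-type livers and lay above all MYC livers. The log2 difference of MYC+Ex3 from MYC was 0.94 ± 0.211 (limma adjusted p = 0.0948), and with a sex covariate the limma adjusted p was 0.0351. Keratin-bearing Ex3 livers had 279 to 303 RPKM of Glul and keratin-free ones 220 to 244. Glul reads were nearly constant over the 5 Ex3 livers, at 3479 to 3752. The keratin-free Ex3 livers were deeper, with 5.38 and 6.05 M reads in genes, against 4.22 to 4.83 M in the keratin-bearing ones. Keratin and depth thus go together in this split, and their part and that of the compressed scale in the Ex3 difference were not tested.

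The glutamate importer Slc1a2 followed Glul over a wider range. Wild-type livers had 39, 84.8, 61.1, 47.2 and 61 RPKM and MYC livers 14.2, 21.7, 17.5, 2.04 and 25.4, with no overlap. This fall of 3.62-fold in the means was a log2 difference of -2.06 ± 0.47 (limma adjusted p = 0.00339). The call held without each library in turn, with -1.51 without MYC liver 4. In keratin-free livers alone the difference was smaller, at -1.30, and also passed (limma adjusted p = 0.00707).

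Slc1a2 in Ex3 livers was 67.6, 69.7, 134, 156 and 145 RPKM, where the 3 high libraries are the keratin-bearing ones. MYC+Ex3 livers had 59.2, 51.8, 130, 38.9 and 127 RPKM, of which livers 3, 4 and 5 are keratin-bearing, so both high values and the lowest came from such libraries. Both groups overlapped wild type, and neither difference passed (log2 0.91 ± 0.47 for Ex3, limma adjusted p = 0.952, and 0.35 ± 0.47 for MYC+Ex3, limma adjusted p = 0.637). Against MYC livers, MYC+Ex3 livers were higher without overlap, by 2.40 ± 0.47 (limma adjusted p = 0.0346), and by size this ranked 1 of 13688 genes. That call did not hold in keratin-free livers alone (log2 1.48, limma adjusted p = 0.0727) or with only the 2 groups fitted (limma adjusted p = 0.405). It was also lost with a keratin term (limma adjusted p = 0.0542), a pseudocount of 0.1 (0.0611) or no filter on low values (0.0597). Nor did it hold without 1 of 7 libraries, namely wild-type liver 3, MYC livers 1 and 3 and MYC+Ex3 livers 1, 2, 3 and 5 (limma adjusted p 0.0505 to 0.146). The smallest difference with a single library left out was 1.86.

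Oat, which links ornithine to glutamate, also fell with MYC alone. Wild-type livers had 147, 194, 151, 172 and 204 RPKM and MYC livers 69.1, 97.1, 122, 48.3 and 109, with no overlap. The log2 difference was -1.02 ± 0.245 (limma adjusted p = 0.00507), and in keratin-free livers alone it was -0.61 (limma adjusted p = 0.0776). Ex3 livers had 193, 173, 253, 251 and 262 RPKM and MYC+Ex3 livers 132, 111, 252, 119 and 234, and both groups overlapped wild type (limma adjusted p = 0.991 and 0.792).

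The ammonium channel Rhbg rose with Ex3, with or without MYC, and did not fall detectably with MYC in these livers. Wild-type livers had 15.1, 10.3, 19.5, 10.5 and 8.31 RPKM and MYC livers 11.3, 16.6, 8.18, 5.42 and 8.53, which overlapped. Ex3 livers had 34.9, 34.7, 50.1, 63.5 and 36.1 RPKM and MYC+Ex3 livers 49, 56.1, 51.3, 18.7 and 68.4. The Ex3 livers were all above wild type, while MYC+Ex3 liver 4 lay within the wild-type range.

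Rhbg differed from wild type by 1.72 ± 0.31 log2 units in Ex3 livers (limma adjusted p = 0.0241) and by 1.80 ± 0.31 in MYC+Ex3 livers (limma adjusted p = 0.000224). It differed between MYC+Ex3 and MYC livers by 2.14 ± 0.31 (limma adjusted p = 0.00353), and that call held without each library. The Ex3 call was lost without wild-type liver 2, 4 or 5 or Ex3 liver 3 or 4 (limma adjusted p 0.064 to 0.114), and within keratin-free libraries (log2 0.98, 2 against 2, limma adjusted p = 1.0) or keratin-bearing ones (log2 2.22, 3 against 3, limma adjusted p = 0.202).

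The exchanger Slc1a4 had the largest log2 difference of the 9 genes between Ex3 and wild-type livers, though not between MYC+Ex3 and MYC livers. Wild-type livers had 7.52, 4.12, 7.77, 6.23 and 9.54 RPKM, and Ex3 livers had 40, 38.9, 36, 50.3 and 10.5. Ex3 liver 5 lay just above wild type and the other four far above it. The means differed 5-fold, a log2 difference of 2.05 ± 0.335 (limma adjusted p = 0.0123). The call was lost without Ex3 liver 3 or 4 (limma adjusted p = 0.0521 and 0.0582), with only the 2 groups fitted (0.0586) and within keratin-bearing libraries (log2 1.94, limma adjusted p = 0.309).

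With both alleles Slc1a4 was 56.5, 49.4, 42.1, 23.8 and 50.7 RPKM, and with MYC alone 13.6, 17.2, 12.8, 6.39 and 10.6. MYC livers overlapped wild type (limma adjusted p = 0.151), whereas all MYC+Ex3 livers were above both. The log2 difference was 2.48 ± 0.335 from wild type (limma adjusted p = 1.64e-05) and 1.80 ± 0.335 from MYC (limma adjusted p = 0.0323). The latter call was lost without any of 8 libraries, MYC livers 1, 3, 4 and 5 and MYC+Ex3 livers 1, 2, 3 and 5 (limma adjusted p 0.0554 to 0.141).

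Slc1a5, the glutamine exchanger, was higher with either allele and highest with both. Its RPKM was 3.44, 1.3, 1.79, 1.57 and 2.57 in wild-type livers, 7.41, 6.59, 6.53, 7.8 and 3.35 in Ex3 livers, 6.35, 3.64, 5.86, 4.47 and 4.71 in MYC livers, and 14.5, 17.4, 11.1, 12.9 and 13.9 in MYC+Ex3 livers. The MYC+Ex3 livers overlapped no other group, and Ex3 liver 5 lay within the wild-type range. Log2 differences from wild type were 1.23 ± 0.205 for Ex3 (limma adjusted p = 0.0128), 0.96 ± 0.205 for MYC (limma adjusted p = 0.00194) and 2.28 ± 0.205 for both (limma adjusted p = 5.37e-07). MYC+Ex3 also exceeded MYC by 1.32 ± 0.205 (limma adjusted p = 0.00639) and Ex3 by 1.05 ± 0.205 (limma adjusted p = 0.000866). The Ex3 call was lost without wild-type liver 4 or Ex3 liver 3 or 4 (limma adjusted p 0.0548 to 0.0711), and wild-type levels rested on 16 to 51 reads per library. In keratin-free livers alone, with fewer libraries, the log2 differences were of similar size but did not pass, at 1.18 for Ex3 (limma adjusted p = 0.803), 0.78 for MYC (0.0743) and 1.48 for MYC+Ex3 against MYC (0.0881).

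The periportal glutaminase Gls2 fell modestly in livers with both alleles. Wild-type livers had 140, 147, 129, 117 and 114 RPKM and MYC+Ex3 livers 88.7, 81.3, 67.6, 126 and 110. The ranges overlapped, and the log2 difference was -0.47 ± 0.147 (limma adjusted p = 0.0237). Ex3 livers ranged from 85.6 to 123 RPKM and MYC livers from 87.8 to 122, and neither passed against wild type (limma adjusted p = 0.991 and 0.224). The MYC+Ex3 call was lost without wild-type liver 1 or 2 or MYC+Ex3 liver 1, 2 or 3 (limma adjusted p 0.0502 to 0.0675). It was also lost within keratin-bearing libraries (limma adjusted p = 0.321) but held within keratin-free ones.

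Slc38a3 and Glud1 passed in none of the short-term comparisons. Slc38a3 ranged from 203 to 242 RPKM in wild-type livers, 190 to 243 with Ex3, 140 to 195 with MYC and 142 to 206 with both. All MYC livers lay below all wild-type livers, by a log2 difference of -0.32 ± 0.116 (limma adjusted p = 0.0529). It passed when libraries were rescaled by their median ratio (limma adjusted p = 0.0339). Glud1 stayed within 148 to 210 RPKM over all 20 livers, and its MYC difference of -0.25 ± 0.0935 had a limma adjusted p of 0.0636, or 0.0488 after rescaling.

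Counted over the 9 genes, Ex3 alone raised 3 (Slc1a4, Rhbg and Slc1a5) and lowered 0 by limma, and 4 had an unadjusted p under 0.05. Of 13688 genes tested 0.132% were called, all 18 of them higher, 0% were lower, and 744 had an unadjusted p under 0.05. MYC alone raised 1 (Slc1a5) and lowered 3 (Glul, Oat and Slc1a2), where 22.3% of genes were called, 16.9% higher and 5.36% lower. MYC+Ex3 against wild type raised 3 (Slc1a4, Rhbg and Slc1a5) and lowered 1 (Gls2), where 24.1% were called, 17.9% higher and 6.18% lower. Rescaling by the median ratio moved the split of all calls from 2313 higher and 734 lower to 1880 and 1302 for MYC, and from 2455 and 846 to 2049 and 1301 for MYC+Ex3, and by it MYC also lowered Slc38a3 and Glud1.

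Adding Ex3 to MYC raised 4 of the 9 genes (Slc1a2, Slc1a4, Rhbg and Slc1a5), where 0.19% of genes were called, all 26 higher, and 0% were lower. The median log2 difference was 0.94 over the 9 genes and -0.01 over all genes tested. Adding MYC to Ex3 raised 1 (Slc1a5), where 21.1% were called, 16.4% higher and 4.7% lower, with all calls at 2249 higher and 644 lower, or 1940 and 956 after rescaling. The 2 comparisons that add Ex3, to wild type and to MYC, share no libraries. Both used the spread estimated from all short-term livers together, so their calls are not independent. These comparisons called 18 and 26 genes with 10 in both, 55.6% of the first list and 38.5% of the second. Slc1a4, Rhbg and Slc1a5 were among the 10. Whether Ex3 acted differently with and without MYC was tested as an interaction, which passed for 0 of the 9 genes and for 0% of all genes by limma. Unadjusted, 132 genes and, of the 9, Slc1a2 (log2 1.49 ± 0.664, limma adjusted p = 1.0) fell under 0.05.

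**Figure D2:**
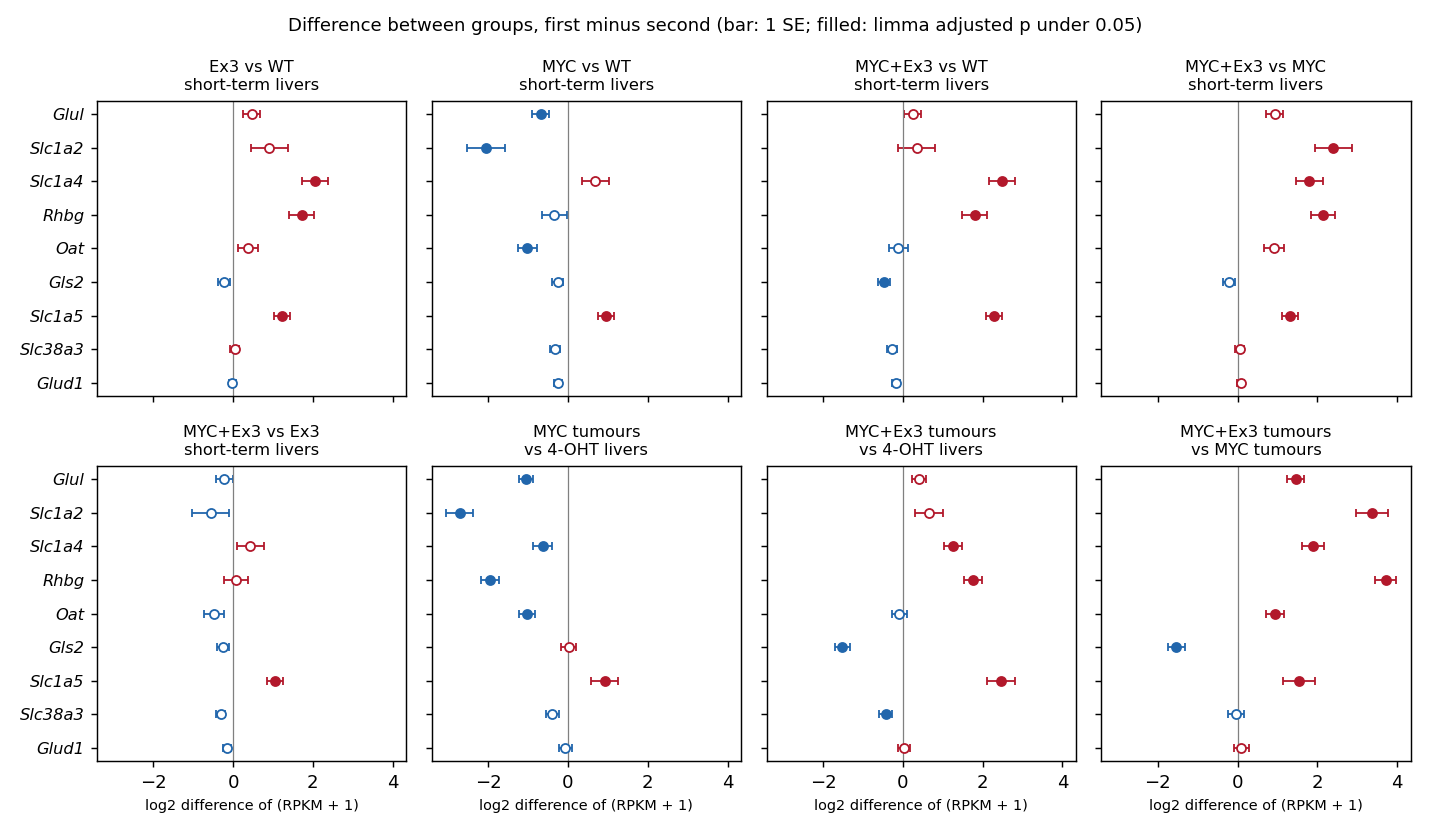
Log2 difference of each gene (RPKM + 1, 1 SE as a bar) in the 8 pairwise comparisons, filled where the limma adjusted p was under 0.05. Slc1a2, Glul and Oat lay to the left of 0 in MYC livers and MYC tumours and to the right wherever Ex3 was added to MYC.

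In tumours, Glul was low with MYC and high with MYC and Ex3. MYC tumours had Glul at 13.7, 26.6 and 13.9 RPKM and MYC+Ex3 tumours at 43.9, 50.8 and 52.7. The 7 4-OHT livers ran from 30.3 through a median of 38.1 to 42.4 RPKM, between the tumour genotypes and overlapping neither. The log2 difference of MYC tumours from livers was -1.05 ± 0.183 (limma adjusted p = 0.000378). MYC+Ex3 tumours differed from livers by 0.40 ± 0.183 (limma adjusted p = 0.0702), and passed when only those groups were fitted (limma adjusted p = 0.0115). The highest RPKM of any gene in MYC+Ex3 tumours 1, 2 and 3 was 45.9, 55.2 and 55.3. Glul thus lay near the top of the compressed scale in these tumours, which limits reading the size of its rise. The tumour genotypes differed by 1.46 ± 0.217 (limma adjusted p = 0.00133), or 0.0678 with only the tumours fitted.

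Slc1a2 fell far below liver in MYC tumours. Its RPKM was 0.434, 4.22 and 0.105 there, 26.2, 16.4 and 18.4 in MYC+Ex3 tumours, and 9.99 to 16.8 (median 11.7) in 4-OHT livers. No MYC tumour reached the livers, while MYC+Ex3 tumour 2 lay just within their range. The log2 difference of MYC tumours from livers was -2.71 ± 0.346 (limma adjusted p = 3.59e-05), and MYC+Ex3 tumours exceeded MYC tumours by 3.37 ± 0.409 (limma adjusted p = 0.00027), a 12.8-fold ratio of means. MYC+Ex3 tumours did not pass against livers (0.66 ± 0.346, limma adjusted p = 0.113), except with only those groups fitted (limma adjusted p = 0.00249).

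Rhbg was lower than liver in MYC tumours and higher than liver in MYC+Ex3 tumours. The 3 MYC tumours held 0.124, 1.09 and 0.08 RPKM, resting on 6 to 86 reads, and the MYC+Ex3 tumours 18.5, 16.3 and 16.1. The 4-OHT livers had 2.98 to 7.27 RPKM (median 4.01), above every MYC tumour and below every MYC+Ex3 tumour. MYC tumours differed from livers by -1.96 ± 0.222 (limma adjusted p = 1.52e-05), MYC+Ex3 tumours by 1.76 ± 0.222 (limma adjusted p = 1.4e-05), and the genotypes from each other by 3.72 ± 0.263 (limma adjusted p = 1.16e-06). By size the last ranked 2 of 11854 genes, with a 39.4-fold ratio of mean RPKM, and all 3 calls held without each library.

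Oat was 9.89, 21.2 and 11.8 RPKM in MYC tumours, 23.4, 27 and 30.9 in MYC+Ex3 tumours and 23.7 to 33.6 (median 30.7) in livers. MYC tumours fell below all livers (log2 -1.02 ± 0.194, limma adjusted p = 0.000721), and MYC+Ex3 tumours overlapped them (limma adjusted p = 0.723). The genotypes differed by 0.94 ± 0.23 (limma adjusted p = 0.0344), which was lost without any of 7 libraries, 4-OHT livers 2 and 3, MYC tumours 1 and 3 and every MYC+Ex3 tumour (limma adjusted p 0.05 to 0.146). It was also lost with a sex covariate (limma adjusted p = 0.0571), with only the tumours fitted (0.255) and without the filter on low values (0.0618), and the 1 female tumour is a MYC+Ex3 tumour. MYC tumour 2 had the highest Glul, Slc1a2, Rhbg and Oat of its group.

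**Figure D3:**
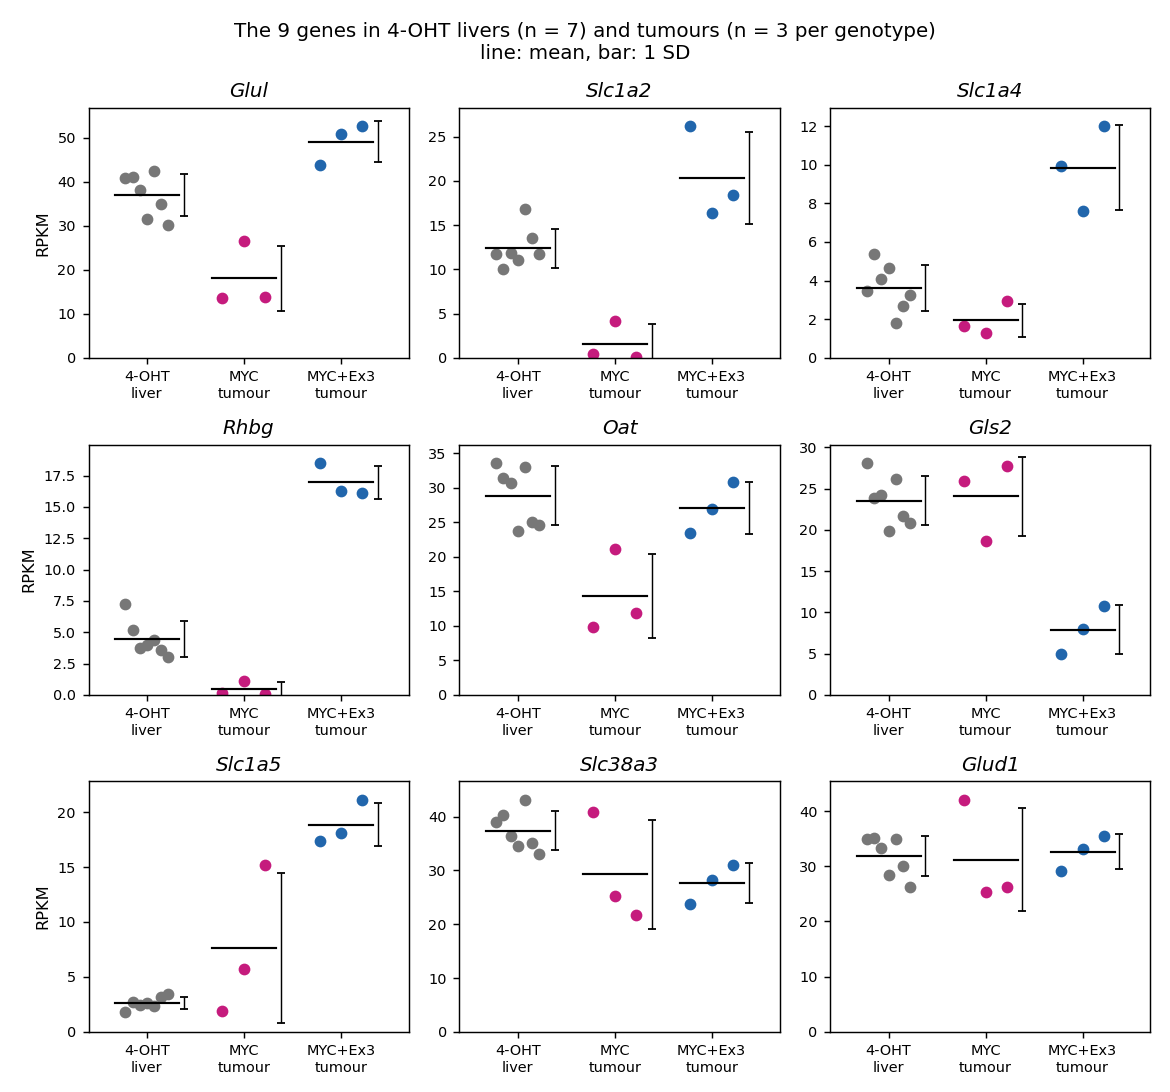
RPKM of each gene in 7 4-OHT livers and 6 tumours, with 1 point per library, the group mean as a line and 1 SD as a bar. Glul, Slc1a2 and Rhbg lay below the livers in MYC tumours and near or above them in MYC+Ex3 tumours, and Gls2 was at 4.92 to 10.8 in MYC+Ex3 tumours.

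Slc1a4 in MYC+Ex3 tumours was 9.92, 7.6 and 12 RPKM, above all other libraries of the arm. MYC tumours had 1.65, 1.29 and 2.92 and livers 1.81 to 5.36 (median 3.44), which overlapped. MYC+Ex3 tumours exceeded livers by 1.26 ± 0.232 (limma adjusted p = 0.00033) and MYC tumours by 1.89 ± 0.274 (limma adjusted p = 0.00111). The fall in MYC tumours was -0.63 ± 0.232 (limma adjusted p = 0.0343), a call lost without 4-OHT liver 2, 3 or 4 or MYC tumour 1 or 2 (limma adjusted p 0.0565 to 0.155). All MYC tumours but only 4 of the 7 livers were male, and the call was also lost with a sex covariate (log2 -0.48, limma adjusted p = 0.11), against livers 5 to 7 alone (-0.29, limma adjusted p = 0.357) and without the filter on low values (limma adjusted p = 0.0609).

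Slc1a5 differed widely among MYC tumours, at 1.93, 5.69 and 15.2 RPKM, but not among MYC+Ex3 tumours, at 17.4, 18.1 and 21.1. Livers had 1.78 to 3.41 RPKM (median 2.59). MYC tumour 1 lay among the livers, MYC tumour 3 close to the MYC+Ex3 tumours. MYC+Ex3 tumours exceeded livers by 2.46 ± 0.343 (limma adjusted p = 3.34e-05), which held without each library.

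The Slc1a5 calls that involve MYC tumours were fragile. The rise over livers, 0.92 ± 0.343 (limma adjusted p = 0.0378), became 0.30 without MYC tumour 3 (limma adjusted p = 0.35), and was also lost without 4-OHT livers 1 to 5 in turn or MYC tumour 2 (limma adjusted p 0.0524 to 0.0751). The difference between genotypes, 1.54 ± 0.406 (limma adjusted p = 0.0487), was lost without any single library except MYC tumour 3 (limma adjusted p 0.0573 to 0.162), and was 0.93 without MYC tumour 1.

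Gls2 was lower, and Glul higher, in MYC+Ex3 than in MYC tumours. MYC+Ex3 tumours had 4.92, 8.03 and 10.8 RPKM, against 25.9, 18.6 and 27.7 in MYC tumours and 19.9 to 28.1 (median 23.9) in livers. MYC+Ex3 tumours overlapped neither, and MYC tumours overlapped livers. The log2 difference of MYC+Ex3 tumours was -1.51 ± 0.187 from livers (limma adjusted p = 1.2e-05) and -1.53 ± 0.221 from MYC tumours (limma adjusted p = 0.00109, or 0.066 with only the tumours fitted). For MYC tumours against livers it was 0.02 ± 0.187 (limma adjusted p = 0.933), and -0.19 after rescaling.

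Slc38a3 was 40.8, 25.3 and 21.7 RPKM in MYC tumours, 23.7, 28.2 and 31.1 in MYC+Ex3 tumours and 33 to 43.1 (median 36.5) in livers. The MYC+Ex3 tumours lay below every liver (log2 -0.43 ± 0.165, limma adjusted p = 0.0371), a call lost without 4-OHT liver 1, 2, 3 or 5 or MYC+Ex3 tumour 1 or 2 (limma adjusted p 0.0509 to 0.165). Glud1 ranged from 25.3 to 42 RPKM over all 13 libraries and passed in no comparison (limma adjusted p 0.764 to 0.854), with MYC+Ex3 tumours at 0.04 from livers, or -0.19 after rescaling.

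Of the 9 genes, MYC tumours against livers had 1 higher (Slc1a5) and 5 lower (Glul, Slc1a2, Slc1a4, Rhbg and Oat), where 49.8% of 11854 genes were called, 36.2% higher and 13.7% lower. MYC+Ex3 tumours had 3 higher (Slc1a4, Rhbg and Slc1a5) and 2 lower (Gls2 and Slc38a3), where 60.6% were called, 42.3% higher and 18.4% lower. Between genotypes 6 were higher with Ex3 (Glul, Slc1a2, Slc1a4, Rhbg, Oat and Slc1a5) and 1 lower (Gls2), where 4.13% were called, 2.02% higher and 2.1% lower. The median log2 difference between genotypes was 1.46 over the 9 genes and 0.03 over all genes tested. Against livers the median of all genes was 0.19 in MYC and 0.23 in MYC+Ex3 tumours, and rescaling brought these to 0.01 and 0.04. It also moved the splits of all calls from 4286 higher and 1621 lower to 3195 and 2788, and from 5011 and 2178 to 3996 and 3242, and with it MYC tumours had no Slc1a5 call (limma adjusted p = 0.0881) but a lower Slc38a3 (limma adjusted p = 0.00699).

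Other cell types also differed between tumours and livers. Macrophage markers fell in 6 of 6 genes in MYC tumours, where 13.7% of all genes fell, and in 5 of 6 in MYC+Ex3 tumours, where 18.4% fell, with their summed level at 92.1 to 123 RPKM in livers, 14.5 to 90.4 in MYC tumours and 35 to 43.1 in MYC+Ex3 tumours. Endothelial markers fell in 4 of 5 and 3 of 5 genes, with sums of 32.5 to 55.9, 14.1 to 29.7 and 20.1 to 23.9 RPKM. Of 5 stellate and fibroblast markers 3 fell and 1 rose in MYC tumours, and 4 fell and 1 rose in MYC+Ex3 tumours, while the 1 cholangiocyte marker tested passed in neither. In short-term livers, 1 of 5 endothelial markers (Kdr) fell with MYC. Of the stellate and fibroblast markers, 1 rose (Col1a1) and 1 fell (Reln) with MYC, beside 16.9% and 5.36% of all genes. With MYC+Ex3, 1 rose (Col1a1) and 2 fell (Lrat and Dcn), beside 17.9% and 6.18%. No marker of these types passed for Ex3 alone. Cholangiocyte markers summed to 5.29 to 71 RPKM in Ex3 livers (median 8.17) and to at most 8.3 in the other short-term groups. Epcam, 1 of them, was lower in MYC+Ex3 than in Ex3 livers (log2 -1.14 ± 0.25, limma adjusted p = 0.0025), where 4.7% of all genes were lower. The part of these cell types in the differences of the 9 genes was not tested.

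Reference genes of the liver zones, none of them among the 9, were read in the same way. Of 6 pericentral references (Axin2, Lgr5, Tbx3, Cyp2e1, Cyp1a2 and Lect2), 4 fell with MYC in short-term livers (5.36% of all genes fell), 6 fell in MYC tumours (13.7%), and 4 were higher in MYC+Ex3 than in MYC tumours (2.02%). Ex3 raised 2 of them, Axin2 and Lgr5, in short-term livers (0.132%), with a median log2 difference of 0.83 against 0.01 over all genes. Of 5 periportal references, 4 fell in MYC+Ex3 tumours against livers (Cyp2f2, Sds, Hal and Pck1), with a median of -2.40 against 0.23 over all genes, and 1 (Cyp2f2) fell in MYC tumours, beside 18.4% and 13.7% of all genes. In short-term livers 1 fell with MYC (Pck1) and 2 with MYC+Ex3 (Hal and Cyp2f2), beside 5.36% and 6.18% of all genes.

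The 2 enzymes at opposite ends of the glutamine cycle can be set against each other in each library. The ratio of Glul to Gls2 RPKM was 1.24 to 1.75 in wild-type livers, 1.96 to 3.54 with Ex3, 0.637 to 1.46 with MYC and 1.52 to 4.66 with both. In the tumour arm it was 1.46 to 1.72 in livers, 0.528, 1.43 and 0.504 in MYC tumours, and 8.93, 6.32 and 4.9 in MYC+Ex3 tumours. All MYC tumours lay below and all MYC+Ex3 tumours above the range of the livers. These ratios are a description of the values above and were not tested. Reads of the 2 genes rose unequally with depth, with slopes of 0.69 for Glul and 1.2 for Gls2 in short-term livers and 1.28 and 0.74 in the tumour arm. The highest short-term ratio, 4.66, was that of MYC+Ex3 liver 3, which had the fewest reads in genes (3.75 M). In MYC+Ex3 tumours Glul also lay near the top of the compressed scale. The part of depth and of this compression in the ratio was not tested.

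**Figure D4:**
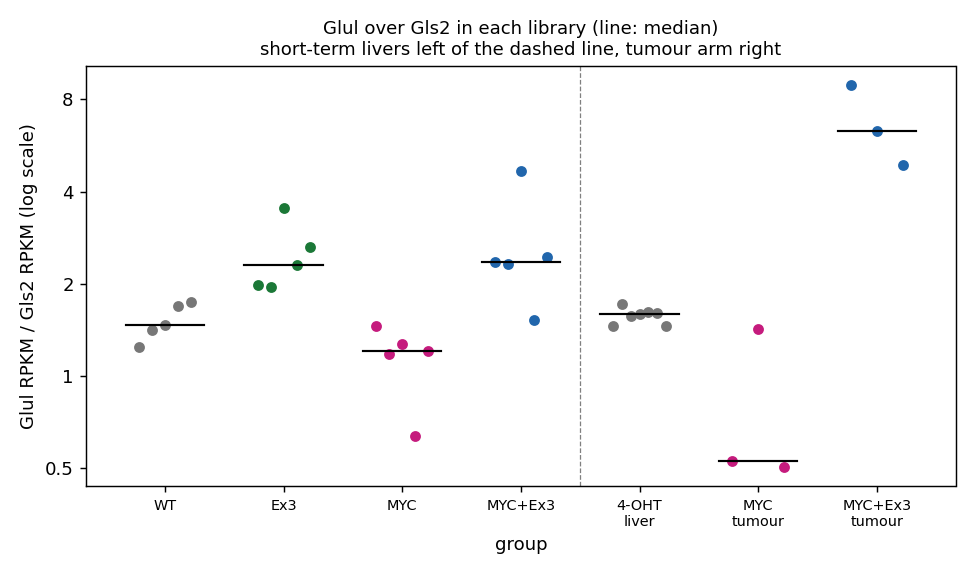
The ratio of Glul to Gls2 RPKM on a log scale in each of the 7 groups, with 1 point per library and the median as a line. MYC+Ex3 tumours had ratios of 4.9 to 8.93, above the 4-OHT livers and the MYC tumours.

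The genes most like Glul, Slc1a2 and Gls2 in their pattern were found by Pearson's r of log2(RPKM + 1) over all libraries of an arm, which share genotype groups and depth, so r is a description. Over the 20 short-term livers and 9102 genes, Glul was most like Cyp1a2 (r = 0.979), Slc1a2 (0.972) and Gulo (0.97), with Oat in place 7 (0.924). Slc1a2 was most like Cyp1a2 (0.973), Glul (0.972) and Gulo (0.959). Cyp1a2 is a pericentral cytochrome, and Gulo makes vitamin C. Over the 13 tumour-arm libraries and 5247 genes, Lect2 (0.972) and Notum (0.962), both known β-catenin targets in liver, were nearest to Glul, followed by Slc1a2 (0.951), Oat (0.925) and Rhbg (0.925).

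Gls2 had other neighbours. Nearest to it were Hal (0.875), Amdhd1 (0.857) and Etnppl (0.851) in short-term livers, and Aspg (0.972), Amdhd1 (0.951) and Ext1 (0.95) in the tumour arm. Hal and Amdhd1 are enzymes of histidine breakdown, a periportal route to glutamate. The r of Gls2 with Glul was -0.03 in short-term livers and -0.50 in the tumour arm.

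Of 46 further genes of glutamine and glutamate metabolism, the amidotransferases, enzymes that spend glutamine nitrogen on nucleotides, asparagine and amino sugars, had the highest share of rises in MYC livers and in tumours of either genotype against 4-OHT livers. With MYC, 4 of 9 tested rose (Ctps, Cad, Pfas and Ppat) and 0 fell, where 16.9% of all genes rose, with a median log2 difference of 1.01 against 0.07 over all genes, and the count was also 4 for MYC+Ex3, where 17.9% rose, with a median of 1.04 against 0.05. These 4 make pyrimidines and purines. Ctps went from 3.19 ± 0.75 RPKM in wild type to 23.2 ± 7.83 in MYC livers (log2 2.49 ± 0.233, limma adjusted p = 1.28e-06). Ex3 alone changed 0 of 9 by limma, and 0 had an unadjusted p under 0.05.

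In MYC tumours 9 of 9 amidotransferases tested rose, where 36.2% of all genes rose, and in MYC+Ex3 tumours 8 of 9, where 42.3% rose, with medians of 1.23 and 1.65 against 0.19 and 0.23 over all genes. Asparagine synthetase, Asns, led both, from 0.203 to 1.65 RPKM in livers to 17.8 to 23.7 in MYC tumours (log2 3.89 ± 0.202, limma adjusted p = 1.99e-08) and 24 to 31 in MYC+Ex3 tumours (4.29 ± 0.202, limma adjusted p = 3.16e-09). In short-term livers Asns was 0.233 to 9.18 RPKM in wild type and 1.65 to 11.4 with MYC, and did not pass (limma adjusted p = 0.253). Between tumour genotypes 0 of 9 passed by limma and 2 had an unadjusted p under 0.05.

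**Figure D5:**
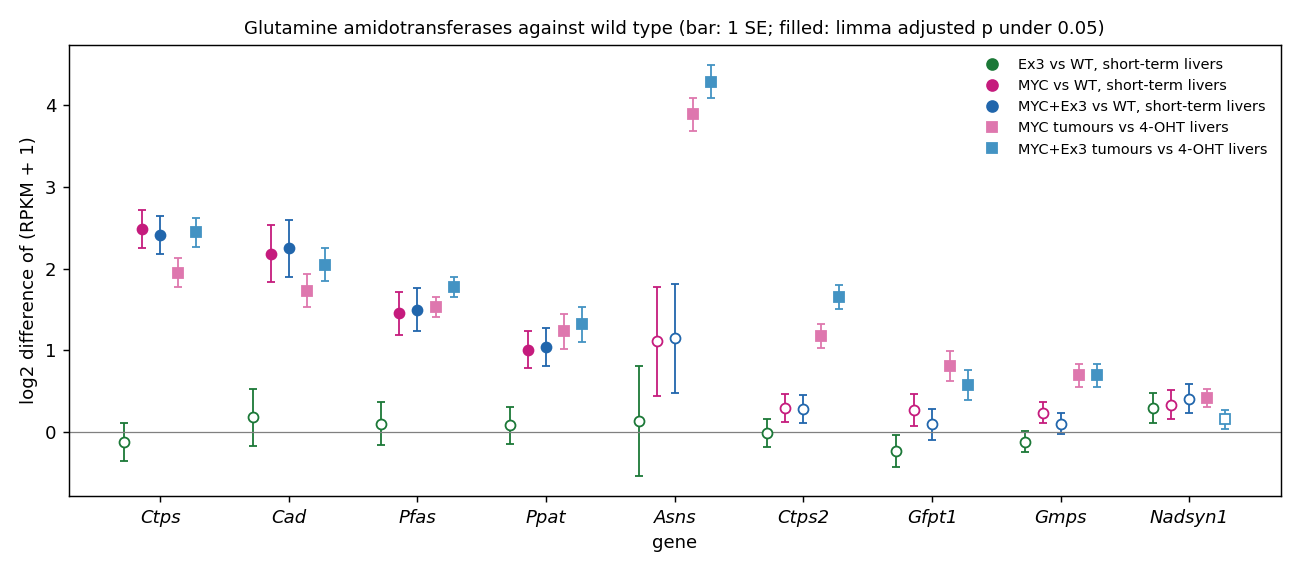
Log2 difference (RPKM + 1, 1 SE as a bar) of 9 glutamine amidotransferases from wild-type livers of the same arm, filled where the limma adjusted p was under 0.05. Ex3 alone lay near 0, and Asns was at 3.89 and 4.29 in the tumours.

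Among 18 tested enzymes that form or use glutamate, Ex3 alone changed 0 by limma, with 1 at an unadjusted p under 0.05. MYC raised 2 (Psat1 and Aldh18a1) and lowered 1 (Tat, a tyrosine aminotransferase), shares below or near the 16.9% and 5.36% of all genes, with a median of -0.14 against 0.07 over all genes. Psat1, the transaminase of serine synthesis, rose from 1.82 ± 0.994 to 19.6 ± 14.7 RPKM (log2 2.70 ± 0.37, limma adjusted p = 2.78e-05). MYC+Ex3 livers had 2 higher, again Psat1 and Aldh18a1, and 3 lower, Hal, Got1 and Uroc1, where 17.9% and 6.18% of all genes were called.

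MYC+Ex3 tumours had 4 of these 18 enzymes higher and 7 lower against livers, and MYC tumours 4 higher and 2 lower. Over all genes 42.3% and 18.4% were called in the former and 36.2% and 13.7% in the latter, so the share of enzymes higher lay below that of all genes in both, and the share lower was near it in MYC tumours. The enzymes had medians of -0.18 and -0.17 against 0.23 and 0.19 over all genes. Between genotypes 3 were lower with Ex3 and 0 higher by limma, where 2.1% and 2.02% of all genes were called, while 10 had an unadjusted p under 0.05 in either direction. The 3 were Ftcd (log2 -1.85 ± 0.216, limma adjusted p = 0.000201), Uroc1 (-1.73 ± 0.2, limma adjusted p = 0.000188) and Hal (-1.62 ± 0.402, limma adjusted p = 0.0365), the steps that carry histidine to glutamate. Ftcd was 17.2 to 19.9 RPKM in MYC tumours and 2.58 to 6.7 in MYC+Ex3 tumours.

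For the other transporters, the counts called were near or below the share of all genes. Of 8 tested, 1 rose with MYC, with MYC+Ex3 and where MYC was added to Ex3, each time the aspartate and glutamate carrier Slc25a12 (with MYC, log2 0.59 ± 0.154, limma adjusted p = 0.00901), where 16.9%, 17.9% and 16.4% of all genes rose. MYC tumours had 2 higher (Slc25a12 and Slc38a7) and 1 lower (Slc25a22), and MYC+Ex3 tumours 2 higher, Slc38a5 and Slc25a12, where 49.8% and 60.6% of all genes were called. Slc38a4, the most abundant of them, was 25.9 to 35.8 RPKM in 4-OHT livers and 27 to 49.9 over the tumours.

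Of the remaining ammonium genes, Cps1, the entry enzyme of the urea cycle, passed in no comparison, at 35 ± 5.25 RPKM in 4-OHT livers, 33.9 ± 8.24 in MYC tumours and 34.8 ± 5.63 in MYC+Ex3 tumours. Its level in 4-OHT livers lay between those of Glud1 (31.9) and Slc38a3 (37.4), whose reads hardly rose with depth in this arm. In wild-type short-term livers Cps1 was at 207 ± 27.3 RPKM, also high on a compressed scale. A change in Cps1 could therefore be missed, and its own slope was not computed. Gldc, which frees ammonium from glycine, rose in MYC tumours (log2 0.76 ± 0.237, limma adjusted p = 0.0162) and fell in MYC+Ex3 tumours (-1.05 ± 0.237, limma adjusted p = 0.00159). Rhag, the erythroid relative of Rhbg, rose in MYC+Ex3 tumours from 0.0922 ± 0.0202 to 6.52 ± 1.87 RPKM (2.75 ± 0.427, limma adjusted p = 8.13e-05). The erythroid markers Alas2 (log2 1.36 ± 0.344, limma adjusted p = 0.00345) and Hbb-b1 (0.67 ± 0.217, limma adjusted p = 0.0158) rose there too, and their part in the Rhag rise was not tested.

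The authors' deposited table gives its own log2 fold changes and adjusted p-values for 7 of these comparisons, and its calls differed in part. For Ex3 against wild type it called Slc1a4, Rhbg and Slc1a5, the 3 genes called here, where the authors' deposited table calls 0.765% of genes. For MYC it called 7 of the 9 (20.5% of genes), adding Gls2, Slc38a3 and Glud1 to the 4 named above. For MYC+Ex3 against wild type it called Slc1a4, Rhbg, Slc1a5 and Gls2 (27.8%), and against MYC it called 3 (0.276%), without Slc1a2 (authors' deposited adjusted p = 0.116).

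In tumours the authors' deposited table called 7 of the 9 for MYC against livers (44.5% of genes), adding Slc38a3, and 7 for MYC+Ex3 against livers (60.7%), adding Slc1a2 and a lower Oat. Between genotypes it called 4 (4.49%), Glul, Slc1a4, Rhbg and Gls2. There the authors' deposited adjusted p was 0.214 for Slc1a2, 0.133 for Oat and 0.231 for Slc1a5, which were called here by limma on log2(RPKM + 1). Slc1a2 was above every MYC tumour in every MYC+Ex3 tumour, so the calls differed on a gene whose tumour groups did not overlap.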

How the data were processed

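Total RNA of 33 samples was made into stranded libraries and sequenced, per the labels' protocols. The deposited table gives RPKM for 21671 genes, together with the authors' log2 fold changes and adjusted p-values for 7 comparisons. The submitters' processing notes name TopHat2 2.0.8, TopHat, SAMtools, featureCounts 1.4.5-p1, DESeq2 and mm9, without saying which step each served. Whole reads were recovered from the RPKM steps (tolerance 0.02 reads) to give depth, of 3.75 to 9.82 M reads in genes per library, and no test used them.

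From RPKM, log2(RPKM + 1) was computed and genes with RPKM of at least 1 in at least 3 libraries were kept, 13688 in short-term livers and 11854 in the tumour arm. The filter kept all 9 genes. Each arm was fitted on its own with limma 3.58.1 in R 4.3.3 (empirical Bayes with trend, two-sided, Benjamini-Hochberg over all genes tested), and adjusted p under 0.05 was called. The limma procedure was tested on simulated data first. Alternatives were a pseudocount of 0.1, no filter, rescaling by the median ratio, fits of the compared groups alone, terms for sex and for keratin, keratin-free libraries, subsets of the 4-OHT livers by label code, and leaving out each library. Promoter windows came from RefSeq tables of GRCm38.p6 and were not joined to mm9 coordinates.

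The 9 genes, the pathway and marker lists and the tests were chosen with earlier results of these data known. The genes named are the 9, up to 3 called genes of largest change per list and comparison, and the 3 genes most like Glul, Slc1a2 and Gls2 among those with a mean RPKM of at least 5. Ppat, Slc38a4, Cps1, Got1 and the short-term values of Asns are named outside that rule, after their values were seen.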

Additional observations from a re-analysis of the deposited data

Results flagged for a closer look

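Of 45 groups of 4 to 10 libraries examined for the 9 genes, 5 held a library far from the others of its group, where chance alone gives about 1 in 20. Glul was 55.9 RPKM in MYC liver 4, the lowest of 5, against 139 to 155 in the rest. Gls2 was 85.6 RPKM in Ex3 liver 3, the lowest of its group. Slc1a5 was 3.35 RPKM in Ex3 liver 5, the lowest of its group, where Slc1a4 was also lowest, at 10.5. Slc38a3 was 242 RPKM in wild-type liver 2, the highest of its group. Glud1 was 187 RPKM in MYC liver 3, the highest of its group.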

How the results depend on the processing

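Over all alternatives, no called difference reversed. Of 786 refits of the 34 called pairs of gene and comparison, 679 kept the call and 107 lost it, and 27 refits of uncalled pairs gained one. Of the 81 pairs, 35 were called in no setting, and their sign changed in 57 refits, at a log2 difference of at most 0.11. The number of the 9 genes called for Ex3 against wild type was 3, but 1 with only the groups compared, 1 in keratin-free libraries and 0 in keratin-bearing libraries, an alternative chosen after seeing the data, and 0 to 3 without single libraries. For MYC against wild type it was 4, but 2 in keratin-free libraries, 6 after rescaling by the median ratio and 3 to 6 without single libraries. For MYC+Ex3 against MYC livers it was 4, but 2 without the filter on low values, 2 in keratin-free libraries, 6 with a sex covariate and 2 to 4 without single libraries. For MYC+Ex3 against Ex3 it was 1, but 2 with the keratin term, 3 in keratin-free libraries and 1 to 2 without single libraries. Between tumour genotypes it was 7, and 3 with only the 6 tumours fitted. Apart from having fewer libraries in some of these fits, the cause was not tested. The interaction has no fit of only the groups compared, and keratin-bearing libraries hold 1 MYC liver, so MYC comparisons were not run there. No paired analysis was possible because the replicate numbers only name libraries and mark no shared animal, litter or day. Few reads limit the precision of Slc1a5 in wild-type livers and of Rhbg in MYC tumours. Low slopes of reads against depth limit Glul, Slc1a2, Oat, Slc38a3 and Glud1 in short-term livers and Slc38a3 and Glud1 in the tumour arm. Glul also lay near the top of the compressed scale in the tumour arm. Slc1a2 in short-term livers reached at most 49.6% of a library's highest RPKM, and its reads were not flat, at 112 to 9100.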
